A study of Mus musculus with 6 samples.

Results

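Described here are the mouse genes for potassium, sodium and chloride channels, across embryonic fibroblasts, muscle and fibroblasts converted to muscle by direct reprogramming. They were taken from the count table by symbol, as every Kcn, Scn or Clcn gene of the pore-forming families and their named auxiliary subunits. The rule itself used no measured value, but the set was chosen with earlier results of these data known. The rule found 115 of the 55286 symbols, of which 92 were potassium, 14 sodium and 9 chloride channel genes. RNA was sequenced from mouse embryonic fibroblasts (MEF), from muscle and from directly reprogrammed cells, with 2 libraries each, which the labels also call transdifferentiated. The series asks whether such a change of cell identity needs a change in DNA methylation, and the RNA libraries show what each cell population expresses. The sources used here give no strain, genotype or age for any group. They also do not say whether the muscle was tissue or cultured muscle cells, which factor converted the fibroblasts, how long conversion ran, or whether the 2 libraries of a group came from separate cultures or animals, so the p-values measure only the spread between these libraries, which may be technical.

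Sodium, potassium and chloride channels set the electrical behaviour of a muscle fibre. Voltage-gated sodium channels carry the upstroke of the action potential, voltage-gated potassium channels repolarise the membrane, and inward rectifier and leak potassium channels hold it near rest. In mature skeletal muscle the chloride channel Clcn1 adds a large resting conductance that prevents repetitive firing, and Scn4a is the main sodium channel. Kcnn3, a calcium-activated potassium channel, is known from immature and denervated skeletal muscle.

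Levels are given in CPM, the counts of a gene scaled to a common library size, for each library, and in CPM per kilobase of exon where genes are compared with each other. The libraries held 16817033 to 24584951 counted reads, and channel genes took 0.0505% to 0.123% of a library. Of the 115 genes, 106 had at least 1 read and 68 passed the filter on low counts and were tested. Of these 68, 28 passed in all 3 groups, 22 in 2 groups, 16 in 1 group and 2 in no whole group. The 47 untested genes reached no more than 1.11 CPM in any library. Among them Kcnj1, Kcnj6, Kcne3, Kcnh5, Kcnh8, Kcng4, Kcnv1 and Kcnk16 were among those with 0 reads in every library, where 3 reads, the limit that a count of 0 allows, come to between 0.128 and 0.182 CPM per library. The labels were checked against 9 skeletal muscle markers, which summed to 380 and 242 CPM in MEF against 49036 and 45384 in muscle, with 32768 and 48001 in transdifferentiated cells. Endothelial markers summed to 2.09 and 0.426 CPM in muscle and the 4 adipocyte markers to 0, though the latter reached no more than 0.388 CPM in any library. In the same muscle libraries fibroblast markers summed to 12441 and 6691 CPM, and smooth muscle and pericyte markers to 8858 and 7187.

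Most of the called channel genes were higher in muscle or in transdifferentiated cells than in MEF. Against MEF, muscle had 28 channel genes higher and 16 lower of the 68 tested, which is 64.7% in either direction, where 35.6% of all 17400 tested genes were called (17.3% higher and 18.3% lower). Transdifferentiated cells had 33 higher and 7 lower than MEF, beside 15.9% and 11.3% of all genes, or 58.8% in either direction beside 27.3%. Between transdifferentiated cells and muscle, 10 were higher and 3 lower, beside 7.58% and 2.46%. The 16 genes that passed the filter in 1 group alone had to differ to be tested, so these shares do not describe all 115. The 22 that passed in 2 groups were under the filter's level in at least 1 library of the third. Of all 17400 tested genes, 1733 passed in 1 group alone, 1988 in 2 and 13089 in all 3, beside 16, 22 and 28 of the 68 channel genes. The shares of channel genes and of all genes are thus not like for like, and neither are the medians given below. In bulk RNA such as this, fewer cells of a type and less RNA per cell cannot be told apart. A gene is called here at an adjusted p under 0.05 in edgeR's quasi-likelihood test, with Benjamini-Hochberg adjustment over all tested genes. The median log2 fold change of the channel genes was 0.90 in muscle and 1.89 in transdifferentiated cells against MEF, and 0.13 between those groups, where the medians of all genes were 0.00, 0.07 and 0.03. With genes at 0 in a group set to their lower bound, the median in transdifferentiated cells against MEF was 1.73 and the others were unmoved.

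**Figure D1:**
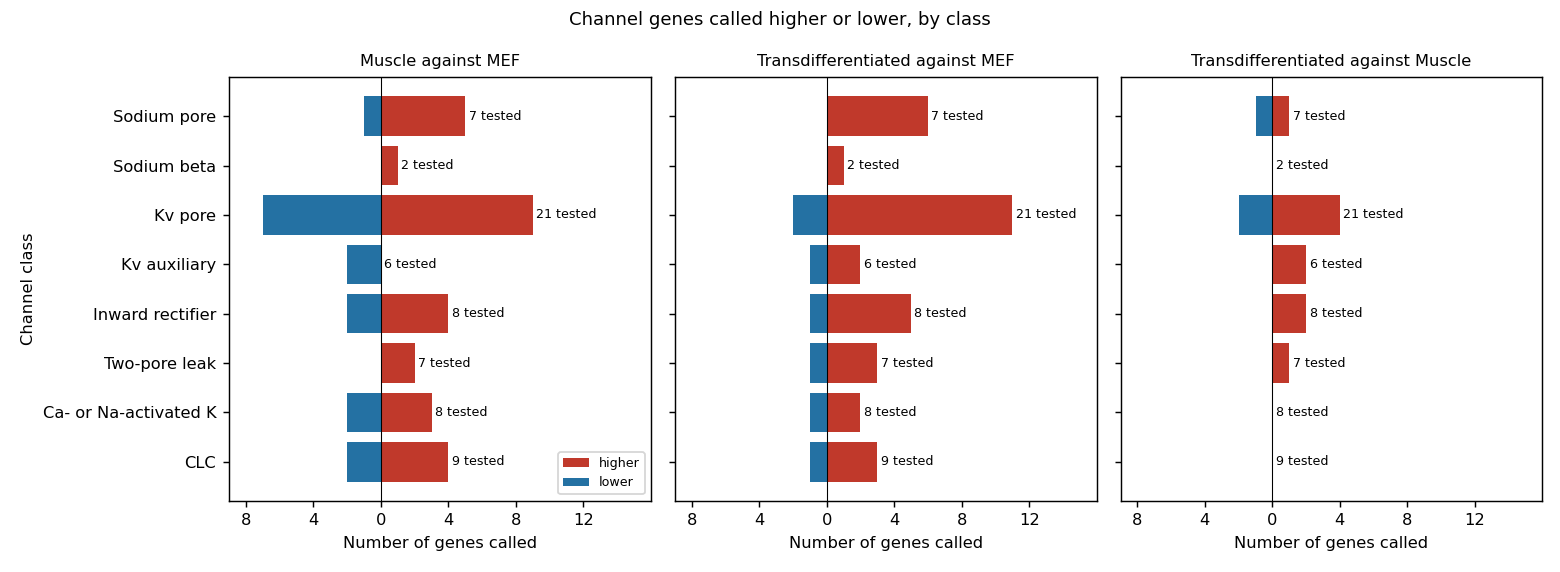
Number of channel genes called higher (right, red) or lower (left, blue) in each comparison, by channel class, with the number tested beside each bar. Voltage-gated potassium pore genes (Kv pore) hold more calls than any other class, 9 higher and 7 lower in muscle against MEF, and no CLC gene was called between transdifferentiated cells and muscle.

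Both comparisons with MEF share the MEF libraries, so their calls are not independent. In 24 channel genes both muscle and transdifferentiated cells were higher than MEF (11.8% of all tested genes had this pattern). Because of the count filter, that count and that share are again not like for like. Every muscle and transdifferentiated library lay above both MEF libraries in these 24, which follows largely from choosing the genes by those calls. In 10 of them both transdifferentiated libraries lay below both muscle libraries, in 4 both lay above, and in 10 the groups overlapped. Only Kcna7 of the 24 was called between transdifferentiated cells and muscle. Transdifferentiated replicate 1 lay below replicate 2 in 18 of the 24, as it did in summed skeletal muscle markers.

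**Figure D2:**
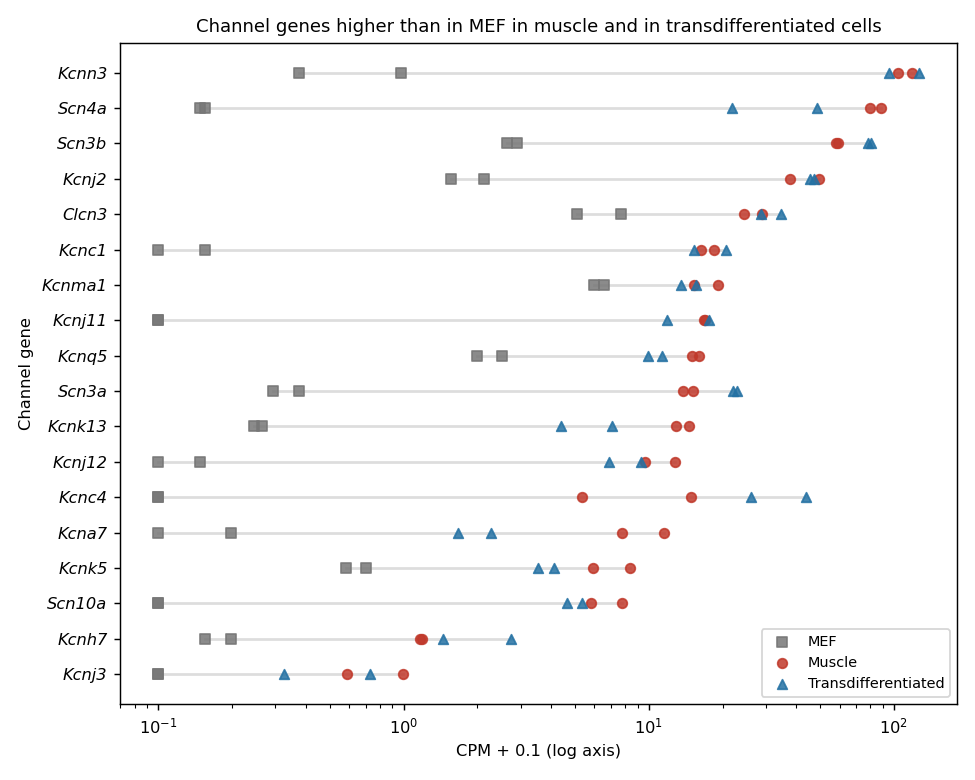
CPM + 0.1 on a log axis of 18 of the 24 channel genes higher than MEF in both muscle and transdifferentiated cells, 1 point per library (squares MEF, circles muscle, triangles transdifferentiated). The MEF libraries lie left of all the others for each gene drawn, and a point at 0.1 is a library with 0 reads.

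The pore-forming sodium channel genes were low in MEF, and most rose in both other groups. Of 7 tested, 5 rose and 1 fell in muscle, and 6 rose in transdifferentiated cells, relative to MEF. Scn4a (chromosome 11, 106318592 to 106353288, minus strand), the skeletal muscle sodium channel, stood at 0.055 and 0.0485 CPM in MEF against 79.4 and 88.1 in muscle, with 21.7 and 48.3 in transdifferentiated cells. The groups did not overlap, and transdifferentiated cells lay between the others. With 2 reads in MEF in all, the ratio was 1610 in muscle (95% counting interval 445 to 13298) and 698 in transdifferentiated cells (193 to 5769), with edgeR adjusted p = 7.39e-06 and 1.81e-05. Between transdifferentiated cells and muscle, its log2 difference was -1.26 ± 0.37 and did not pass the test (edgeR adjusted p = 0.0680).

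Scn3a and Scn10a, sodium channels best known from neurons, also rose in both. Scn3a stood at 0.275 and 0.194 CPM (MEF), 13.7 and 15.1 (muscle) and 22.7 and 22.0 (transdifferentiated), log2 fold changes over MEF of 5.91 ± 0.41 and 6.55 ± 0.42 (edgeR adjusted p = 1.12e-05 and 8.79e-06). Scn10a had no read in either MEF library, against 5.71 and 7.66 CPM in muscle and 4.55 and 5.22 CPM in transdifferentiated cells. Against the limit of 3 reads per library, averaged over the group, it was at least 43.0-fold higher in muscle and at least 31.5-fold higher in transdifferentiated cells (edgeR adjusted p = 8.26e-05 and 0.000164). Scn7a, an atypical member that responds to sodium concentration and not to voltage, stood at 3.08 and 4.32 CPM in MEF against 4.94 and 7.66 in muscle, with 22.2 and 12.6 in transdifferentiated cells. It rose in transdifferentiated cells over MEF by 2.23 ± 0.42 log2 units (edgeR adjusted p = 0.00481), and its value in muscle was 0.76 ± 0.42 (edgeR adjusted p = 0.192).

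Scn2a, a sodium channel of brain neurons, took the opposite course in muscle and in transdifferentiated cells. It stood at 2.31 and 3.54 CPM in the MEF libraries, 0.554 and 0.426 in those of muscle and 10.5 and 7.06 in those of transdifferentiated cells, with no overlap between any groups. It fell by 2.55 ± 0.49 on the log2 scale in muscle against MEF and was 4.13 ± 0.49 higher in transdifferentiated cells than in muscle (edgeR adjusted p = 0.00362 and 0.00117). Over MEF it rose by 1.58 ± 0.42 in transdifferentiated cells (edgeR adjusted p = 0.0219), a call lost without MEF replicate 1 (adjusted p = 0.116) or without transdifferentiated replicate 1 (adjusted p = 0.126). Scn9a, a channel of sensory neurons, stood at 0.055 and 0 CPM in MEF, 0.767 and 0.790 in muscle, and 0 in both transdifferentiated libraries. It was called in muscle against both others (edgeR adjusted p = 0.0182 over MEF and 0.0276 over transdifferentiated cells), at least 4.97-fold over the latter. The first call was lost without MEF replicate 2 (adjusted p = 0.123) or muscle replicate 2 (0.102), and the second without muscle replicate 2 (0.155), transdifferentiated replicate 1 (0.112) or replicate 2 (0.113). Scn1a and Scn8a, neuronal channels as well, were too low to test, at no more than 0.631 and 0.097 CPM in any library.

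Among the beta subunits, which guide and modulate the pore, Scn3b rose. Scn3b stood at 2.53 and 2.81 CPM (MEF), 58.8 and 57.8 (muscle) and 80.3 and 78.3 (transdifferentiated). It rose over MEF by 4.44 ± 0.28 and 4.89 ± 0.29 log2 units (edgeR adjusted p = 7.02e-06 and 6.22e-06), with libraries of a group close together and no overlap between groups. Scn2b and Scn4b were not tested and reached 0.0562 and 0.532 CPM at most.

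Voltage-gated potassium pore genes were the largest class, with 21 tested, and they moved in both directions. In muscle 9 rose and 7 fell, and in transdifferentiated cells 11 rose and 2 fell, relative to MEF. Kcnq5, a slowly activating channel of the M-current family, stood at 2.42 and 1.89 CPM (MEF), 14.9 and 15.9 (muscle) and 11.2 and 9.87 (transdifferentiated), a rise of 2.83 ± 0.34 and 2.29 ± 0.34 (edgeR adjusted p = 0.000274 and 0.00124). It was not called between transdifferentiated cells and muscle, where the log2 difference was -0.55 ± 0.31 (edgeR adjusted p = 0.379).

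The Kcnc genes encode fast delayed rectifiers that let cells fire at high rates, and Kcnc1 and Kcnc4 rose in both. Kcnc1 stood at 0.055 and 0 CPM in the MEF libraries, 18.3 and 16.3 in those of muscle and 15.2 and 20.6 in those of transdifferentiated cells. From 1 read in MEF the ratio was 678 in muscle (counting interval 121 to 26822) and 703 in transdifferentiated cells (126 to 27787), with edgeR adjusted p = 1.44e-05 and 1.76e-05. Kcnc4 had no read in MEF, against 14.7 and 5.23 CPM in muscle and 26.1 and 43.5 CPM in transdifferentiated cells. It was at least 64.3-fold higher in muscle and at least 224-fold higher in transdifferentiated cells than in MEF (edgeR adjusted p = 0.000353 and 0.000172), and both transdifferentiated libraries lay above both muscle libraries without passing the test (log2 difference 1.79 ± 0.51, edgeR adjusted p = 0.0718). Kcnc2 went the other way in transdifferentiated cells. It stood at 0.825 and 0.437 CPM in MEF against 0.895 and 1.16 in muscle, with 0.112 and 0 in transdifferentiated cells. From 2 reads in transdifferentiated cells, MEF was 11.9 times higher (2.96 to 104) and muscle, with 40 reads, 19.3 times higher, with edgeR adjusted p = 0.0454 and 0.0404. Both calls were lost without transdifferentiated replicate 2 (adjusted p = 0.173 and 0.157), and without muscle replicate 1 (0.0835 and 0.130) or muscle replicate 2 (0.0877 and 0.194), the first also without MEF replicate 1 (0.169). It was the one channel gene below both other groups in transdifferentiated cells, where 0.609% of all tested genes were.

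Of the shaker-related genes, Kcna7, which is expressed in skeletal muscle and heart, stood at 0 and 0.097 CPM in the MEF libraries, 7.67 and 11.5 in those of muscle and 1.57 and 2.18 in those of transdifferentiated cells. From 2 reads in MEF the ratio was 179 in muscle (49.3 to 1486) and 36.8 in transdifferentiated cells (9.83 to 310), with edgeR adjusted p = 0.000118 and 0.00192. Transdifferentiated cells lay between MEF and muscle and below muscle by 2.34 ± 0.49 log2 units (edgeR adjusted p = 0.0180), a call lost without muscle replicate 2 (adjusted p = 0.144) or transdifferentiated replicate 1 (0.0627). Kcna1, a channel of axons, took the reverse pattern, with 0.385 and 0.728 CPM in MEF, 0 in both muscle libraries, and 1.35 and 1.84 in transdifferentiated cells. Muscle was at least 3.59-fold lower than MEF and transdifferentiated cells at least 10.3-fold higher than muscle (edgeR adjusted p = 0.00832 and 0.00665). Kcna5, also known from muscle and heart, was not tested and did not pass 0.0562 CPM in any library.

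The Kcnd genes, which carry fast transient currents, fell in muscle in all 3 tested cases. Kcnd2 stood at 1.87 and 3.11 CPM (MEF), 0.0852 and 0.122 (muscle) and 4.21 and 3.77 (transdifferentiated), 4.54 ± 0.64 lower on the log2 scale in muscle than in MEF and 5.22 ± 0.63 higher in transdifferentiated cells than in muscle (edgeR adjusted p = 0.000663 and 0.00124). Kcnd3 stood at 0.330 and 0.437 CPM in MEF, 0 in both muscle libraries, and 0.505 and 0.677 in transdifferentiated cells. Muscle was at least 2.47-fold below MEF and transdifferentiated cells at least 3.81-fold above muscle (edgeR adjusted p = 0.0169 and 0.0259). These calls rest on few reads and were both lost without muscle replicate 1 (adjusted p = 0.104 and 0.173) or muscle replicate 2 (0.0863 and 0.152), the first without MEF replicate 2 (0.0582), the second without transdifferentiated replicate 1 (0.0597) or replicate 2 (0.0918). Kcnd1 behaved differently, with 12.9 and 7.86 CPM in MEF against 4.09 and 2.37 in muscle, with 1.91 and 2.76 in transdifferentiated cells. It fell by 1.67 ± 0.44 in muscle and by 2.15 ± 0.45 in transdifferentiated cells (edgeR adjusted p = 0.0170 and 0.00820), the former call lost without MEF replicate 1 (adjusted p = 0.0900) or muscle replicate 2 (0.132).

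Among the ether-a-go-go relatives, Kcnh1, which is known from human myoblasts before fusion and from dividing cells, fell in muscle and Kcnh7 and Kcnh4 rose. Kcnh1 stood at 4.79 and 3.30 CPM in MEF against 0.809 and 0.243 in muscle, with 1.46 and 1.89 in transdifferentiated cells, a fall in muscle of 2.87 ± 0.60 (edgeR adjusted p = 0.00589), and -1.27 ± 0.55 in transdifferentiated cells (edgeR adjusted p = 0.124). Markers of cycling cells summed to 181 and 245 CPM in MEF against 13.7 and 10.9 in muscle, with 85.8 and 52.3 in transdifferentiated cells, the same order of groups, and their part in this result was not tested. Kcnh7 stood at 0.055 and 0.097 CPM in the MEF libraries, 1.06 and 1.09 in those of muscle and 2.64 and 1.35 in those of transdifferentiated cells (edgeR adjusted p = 0.00650 and 0.00277), and Gca overlaps it on the other strand. Kcnh4 had no read in MEF, against 0.980 and 1.34 CPM in muscle and 0.112 and 0 CPM in transdifferentiated cells, which put muscle at least 7.46-fold above MEF (edgeR adjusted p = 0.00745). Kcns1, a silent subunit that modifies other channels, stood at 0.110 and 0.340 CPM (MEF), 0 (muscle) and 1.07 and 0.822 (transdifferentiated). It was at least 6.09-fold higher in transdifferentiated cells than in muscle (edgeR adjusted p = 0.0194), a call lost without muscle replicate 1 (adjusted p = 0.126), muscle replicate 2 (0.110) or transdifferentiated replicate 1 (0.0579). Its call in muscle against MEF (edgeR adjusted p = 0.0469) was lost without MEF replicate 2 (adjusted p = 0.203), either muscle library (0.178 and 0.150) or either transdifferentiated library (0.0742 and 0.0681). Its relative Kcns3 was too low to test, at 0.605 CPM or less. To complete the count, Kcng1, Kcng2 and Kcnh2 were also called above MEF in transdifferentiated cells, and Kcna6 below MEF in muscle. By edgeR the call on Kcnh2 was lost without transdifferentiated replicate 2 (adjusted p = 0.0824), and that on Kcna6 without MEF replicate 1 (0.0524), MEF replicate 2 (0.0845) or muscle replicate 2 (0.177). The call on Kcng1 was lost with DESeq2 (adjusted p = 0.0743) and in edgeR without either MEF library (0.0695 and 0.166), either muscle library (0.0511 and 0.0530) or transdifferentiated replicate 2 (0.0700).

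Of 6 tested auxiliary subunits of voltage-gated potassium channels, none rose in muscle and 2 fell, and in transdifferentiated cells 2 rose and 1 fell against MEF. At an unadjusted p under 0.05, 2 differed between muscle and MEF, and DESeq2 called 2. Between transdifferentiated cells and muscle, edgeR called 2 of the 6 higher and 0 lower. There 6 were at an unadjusted p under 0.05 in either direction, DESeq2 called 4, and the median log2 fold change was 2.22. The other rise in transdifferentiated cells besides Kcne4 was that of Kcnip2. Kcnab1, a cytoplasmic beta subunit, stood at 20.6 and 24.1 CPM in MEF against 0.596 and 0.669 in muscle, with 3.76 and 3.39 in transdifferentiated cells. It fell by 5.14 ± 0.39 in muscle and by 2.65 ± 0.33 in transdifferentiated cells, and was 2.49 ± 0.38 higher in transdifferentiated cells than in muscle (edgeR adjusted p = 1.77e-05, 0.000480 and 0.00367), so the 3 groups stood apart. Kcnab2 stood at 3.25 and 1.94 CPM in the MEF libraries, 1.36 and 0.608 in those of muscle and 1.97 and 5.32 in those of transdifferentiated cells. Only MEF and transdifferentiated cells overlapped, with muscle below both, and Kcnab2 was called in no comparison. Kcnip3, a calcium-binding subunit of the Kcnd channels, stood at 6.22 and 4.08 CPM (MEF), 1.06 and 0.547 (muscle) and 2.30 and 4.06 (transdifferentiated), and fell by 2.63 ± 0.53 in muscle (edgeR adjusted p = 0.00494). Kcne4, a single-pass subunit that suppresses some potassium currents, stood at 1.21 and 2.04 CPM in MEF against 0.852 and 0.669 in muscle, with 8.82 and 6.38 in transdifferentiated cells. Both transdifferentiated libraries lay above all the rest, by 2.22 ± 0.45 on the log2 scale over MEF and 3.30 ± 0.48 over muscle (edgeR adjusted p = 0.00637 and 0.00308).

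Among inward rectifiers, 4 of 8 tested genes rose in muscle and 5 in transdifferentiated cells, with Kcnj2, Kcnj11 and Kcnj12 at the front. Kcnj2 (chromosome 11, 111066164 to 111076821, plus strand), the strong inward rectifier that holds the resting potential and is known to drive human myoblast differentiation, stood at 2.04 and 1.46 CPM in the MEF libraries, 49.3 and 37.6 in those of muscle and 45.5 and 47.3 in those of transdifferentiated cells. It rose by 4.64 ± 0.34 and 4.73 ± 0.34 over MEF (edgeR adjusted p = 1.46e-05 and 1.69e-05), and the muscle and transdifferentiated libraries overlapped. Its partner in strong rectification, Kcnj12, stood at 0 and 0.0485 CPM (MEF), 12.7 and 9.55 (muscle) and 6.80 and 9.19 (transdifferentiated). From 1 read in MEF the ratio was 443 in muscle (79.1 to 17536) and 313 in transdifferentiated cells (55.8 to 12420), with edgeR adjusted p = 3.43e-05 and 6.94e-05. Kcnj3, a G-protein-gated channel of the heart, had no read in MEF, against 0.895 and 0.486 CPM in muscle and 0.225 and 0.629 CPM in transdifferentiated cells, at least 4.45-fold and 2.75-fold above MEF (edgeR adjusted p = 0.0118 and 0.0298). The call in muscle was lost without muscle replicate 1 (adjusted p = 0.0700), and the call in transdifferentiated cells without transdifferentiated replicate 2 (0.122), either MEF library (0.0887 and 0.0893) or either muscle library (0.0606 and 0.0542).

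Myogenic factors of the MyoD family bind E-box sequences, and MEF2 factors an A/T-rich element, so the 250 bases before the annotated start were read for the channel genes that have a promoter entry in RefSeq (GRCm38.p6), 84 of the 115. The E-box form searched was CAGCTG, which reads the same on both strands, and 12.4% of the windows of all 20544 genes held it. Among the 84 channel genes 21.4% did. Among the 15 with an entry of the 24 that rose in both groups 2 did (13.3%), Kcnj2 and Kcnj3, near the share of all genes. The MEF2 element, searched on both strands, was in 2.84% of all windows and in 0 of those 15. It was in 3 of the 84, Clcn1 among them, 51 bases before its start. The 3 windows are shown because Kcnj2, Kcnj3 and Clcn1 rose in muscle and hold 1 of these elements, each written 5′ to 3′ on the gene's strand and ending at the base before the start, with the element in capitals. Kcnj2 lies at chr11:111065914-111066163 with its element 206 bases before the start, Kcnj3 at chr2:55435720-55435969 with its element 65 bases before, and Clcn1 at chr6:42286435-42286684, all 3 on the plus strand.
Kcnj2: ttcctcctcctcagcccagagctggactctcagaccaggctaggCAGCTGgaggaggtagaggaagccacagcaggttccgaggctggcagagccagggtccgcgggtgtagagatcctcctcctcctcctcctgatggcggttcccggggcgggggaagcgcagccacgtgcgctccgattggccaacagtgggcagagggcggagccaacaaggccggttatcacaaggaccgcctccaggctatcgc
Kcnj3: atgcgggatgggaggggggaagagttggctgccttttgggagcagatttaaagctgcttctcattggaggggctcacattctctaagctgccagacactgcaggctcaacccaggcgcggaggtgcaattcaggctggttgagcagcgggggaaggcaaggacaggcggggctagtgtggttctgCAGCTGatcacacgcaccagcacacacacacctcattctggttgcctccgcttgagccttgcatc
Clcn1: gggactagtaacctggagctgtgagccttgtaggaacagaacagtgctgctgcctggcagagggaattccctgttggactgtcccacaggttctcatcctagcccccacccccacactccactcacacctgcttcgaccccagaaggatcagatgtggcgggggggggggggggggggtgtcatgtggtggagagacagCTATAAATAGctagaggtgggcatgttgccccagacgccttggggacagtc
A match of letters describes the window and shows no binding, and CAGCTG was also in 3 of the 14 windows of the genes that fell in muscle.

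The channel opened by a fall in ATP is built from a Kcnj pore and an ATP-binding cassette subunit, and its 2 pore genes parted. Kcnj11 (chromosome 7, 46093953 to 46100764, minus strand) had no read in MEF, against 16.9 and 16.7 CPM in muscle and 11.7 and 17.6 CPM in transdifferentiated cells. That was at least 108-fold higher in muscle and at least 94.3-fold higher in transdifferentiated cells than in MEF (edgeR adjusted p = 2.50e-05 and 3.77e-05), with overlap between the latter groups. Kcnj8, the pore gene typical of vascular smooth muscle and pericytes, stood at 1.98 and 2.72 CPM in MEF, 0 in both muscle libraries, and 2.13 and 1.93 in transdifferentiated cells. Muscle was at least 15.1-fold lower than MEF, and transdifferentiated cells at least 13.1-fold higher than muscle (edgeR adjusted p = 0.000533 and 0.00243). Of the cassette subunits, Abcc8 had no read in MEF, against 7.58 and 7.66 CPM in muscle and 2.58 and 5.22 CPM in transdifferentiated cells, and was called higher in both. Abcc9 stood at 3.25 and 4.22 CPM in MEF against 80.2 and 98.2 in muscle, with 48.9 and 54.9 in transdifferentiated cells, 4.57 ± 0.31 and 3.79 ± 0.30 above MEF (edgeR adjusted p = 9.66e-06 and 3.04e-05).

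The other called inward rectifiers were low in muscle. Kcnj10, the channel of glia, stood at 0.110 and 0.0485 CPM in the MEF libraries, 0.0426 and 0 in those of muscle and 1.97 and 5.32 in those of transdifferentiated cells. From 3 reads in MEF and 1 in muscle, transdifferentiated cells were 48.7 times (16.3 to 239) and 150 times (26.6 to 5982) higher (edgeR adjusted p = 0.00232 and 0.00375). Kcnj15 stood at 18.5 and 21.2 CPM (MEF), 3.28 and 0.912 (muscle) and 5.84 and 3.68 (transdifferentiated), a fall of 3.21 ± 0.55 and 2.06 ± 0.52 (edgeR adjusted p = 0.00223 and 0.0189), the latter lost without transdifferentiated replicate 2 (adjusted p = 0.0557). MEF lay above both other groups in Kcnj15, as in Clcn6, Kcnab1, Kcnd1 and Kcnmb1, a pattern of 9.32% of all tested genes.

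Leak channels with paired pore domains set the background potassium conductance, and 2 of 7 tested genes rose in muscle, both of which rose in transdifferentiated cells too. Kcnk13 stood at 0.165 and 0.146 CPM in MEF against 14.5 and 12.8 in muscle, with 4.27 and 7.01 in transdifferentiated cells, rises of 6.41 ± 0.52 and 5.13 ± 0.52 (edgeR adjusted p = 3.02e-05 and 0.000154). Kcnk5, an acid-sensitive member, stood at 0.605 and 0.485 CPM in the MEF libraries, 8.31 and 5.84 in those of muscle and 3.43 and 4.01 in those of transdifferentiated cells, rises of 3.69 ± 0.46 and 2.76 ± 0.45 (edgeR adjusted p = 0.000326 and 0.00223). For both genes the 3 groups did not overlap. Kcnk1, a weakly conducting member, stood at 0.110 and 0.0485 CPM in MEF, 0 in both muscle libraries, and 2.58 and 2.85 in transdifferentiated cells. Transdifferentiated cells were 35.3 times higher than MEF (11.7 to 174) and at least 17.5-fold higher than muscle (edgeR adjusted p = 0.00253 and 0.00270). Kcnk2, a stretch-activated member, and Kcnk6 passed no test in any comparison. They stood between 2.61 and 6.72 CPM and between 0.304 and 3.85 CPM. Kcnk12, a silent subunit, was lower in transdifferentiated cells than in MEF (0.112 and 0.919 against 4.51 and 1.65 CPM, edgeR adjusted p = 0.0499), a call lost without MEF replicate 1 (adjusted p = 0.213), transdifferentiated replicate 1 (0.140) or either muscle library (0.0689 and 0.0679), under a stricter count filter (0.0528) and with only MEF and transdifferentiated cells fitted (0.0834).

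Calcium-activated potassium channels couple calcium signals to the membrane potential, and Kcnn3 was the leading gene of this class. Kcnn3 (chromosome 3, 89520164 to 89675132, plus strand) stood at 0.275 and 0.873 CPM (MEF), 104 and 119 (muscle) and 95.6 and 127 (transdifferentiated). Both muscle libraries lay within the range of the transdifferentiated ones, and the log2 fold change over MEF was 7.55 ± 0.49 in each (edgeR adjusted p = 8.56e-06 and 1.09e-05). It made up 66.7 ± 1.17% of the per-kilobase sum of its class in muscle and 73.0 ± 2.58% in transdifferentiated cells, against 1.46 ± 1.29% in MEF. Of its relatives, Kcnn1 was called in no comparison, at 1.99 to 6.87 CPM, and Kcnn2 was not tested, with 0 reads in muscle and at most 1.01 CPM elsewhere. Kcnn4, the intermediate-conductance channel of dividing fibroblasts and blood cells, stood at 7.37 and 4.17 CPM in MEF against 15.1 and 11.3 in muscle, with 4.66 and 6.29 in transdifferentiated cells. It rose by 1.20 ± 0.39 in muscle (edgeR adjusted p = 0.0410), a call lost without MEF replicate 2 (adjusted p = 0.195), muscle replicate 1 (0.211) or muscle replicate 2 (0.0829).

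In muscle and transdifferentiated cells the large-conductance channel had more pore RNA than in MEF and less RNA of 1 beta subunit. Kcnma1, its pore, stood at 6.49 and 5.87 CPM in the MEF libraries, 15.3 and 19.0 in those of muscle and 15.4 and 13.4 in those of transdifferentiated cells. It rose by 1.47 ± 0.30 and 1.22 ± 0.30 (edgeR adjusted p = 0.00521 and 0.0167), the former call lost without muscle replicate 2 (adjusted p = 0.0530) and the latter without MEF replicate 2 (0.0674) or transdifferentiated replicate 1 (0.0709). Kcnmb1, the beta subunit of smooth muscle, stood at 5.89 and 5.05 CPM (MEF), 0.554 and 0.182 (muscle) and 0.112 and 0.193 (transdifferentiated). It fell by 3.81 ± 0.59 in muscle and by 5.08 ± 0.67 in transdifferentiated cells (edgeR adjusted p = 0.00127 and 0.000729). Kcnmb4, the neuronal beta subunit, stood at 0.213 to 0.935 CPM and was not called. The sodium-activated channel Kcnt2 was at 2.37 and 2.04 CPM in MEF against 0.639 and 0.547 in muscle, with 0.674 and 1.93 in transdifferentiated cells, lower in muscle (edgeR adjusted p = 0.0450) but not without MEF replicate 1 (adjusted p = 0.109), MEF replicate 2 (0.0645), muscle replicate 1 (0.144) or muscle replicate 2 (0.183). No gene of this class was called by edgeR between transdifferentiated cells and muscle, with 1 of 8 at an unadjusted p under 0.05 and 1 called by DESeq2.

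The CLC genes, which encode chloride channels of the surface membrane and chloride-proton exchangers of endosomes and lysosomes, had a high summed level in every group. Their per-kilobase sum was 43.6 ± 2.92 CPM per kb for MEF, 34.3 ± 1.44 for muscle and 34.8 ± 4.77 for transdifferentiated cells (SD, n = 2). Clcn1 (chromosome 6, 42286685 to 42315756, plus strand), the chloride channel of mature muscle fibres, stood at 0.605 and 0.534 CPM in the MEF libraries, 2.77 and 4.62 in those of muscle and 1.29 and 2.37 in those of transdifferentiated cells, with no overlap between groups. It rose by 2.68 ± 0.56 in muscle (edgeR adjusted p = 0.00550), and its value in transdifferentiated cells, 1.68 ± 0.56 over MEF, did not pass (edgeR adjusted p = 0.0541). At 3.69 ± 1.31 CPM in muscle it stood far below Scn4a per kilobase, 0.681 against 11.9 CPM per kb. Fam131b overlaps Clcn1 on the other strand, and without a stated strand setting their reads cannot be told apart.

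Among the intracellular exchangers, Clcn3 stood at 5.01 and 7.62 CPM (MEF), 24.4 and 28.9 (muscle) and 34.6 and 28.7 (transdifferentiated). It rose by 2.07 ± 0.32 and 2.32 ± 0.32 (edgeR adjusted p = 0.00113 and 0.000930). Clcn4 and Clcn5 passed no test, at 43.3 to 66.9 and 93.5 to 146 CPM. Clcn6, of late endosomes, stood at 56.1 and 44.0 CPM in MEF against 24.4 and 20.7 in muscle, with 14.3 and 25.2 in transdifferentiated cells, a fall of 1.15 ± 0.33 and 1.34 ± 0.33 (edgeR adjusted p = 0.0240 and 0.0166). The call in muscle was lost without MEF replicate 1 (adjusted p = 0.0799), muscle replicate 1 (0.0864) or muscle replicate 2 (0.160), and that in transdifferentiated cells without transdifferentiated replicate 1 (0.0872). Clcn7, the lysosomal exchanger, stood at 105 and 70.0 CPM in the MEF libraries, 43.8 and 38.4 in those of muscle and 29.7 and 54.9 in those of transdifferentiated cells, and fell by 1.09 ± 0.35 in muscle (edgeR adjusted p = 0.0381), but not without MEF replicate 1 (adjusted p = 0.154), muscle replicate 1 (0.121) or muscle replicate 2 (0.198). Clcn2, a channel of many tissues, lay between 10.9 and 21.5 CPM and was not called. Between transdifferentiated cells and muscle edgeR called no CLC gene, with 0 of 9 at an unadjusted p under 0.05 and 0 called by DESeq2.

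Thus edgeR called 13 channel genes between transdifferentiated cells and muscle. Kcna1, Kcnab1, Kcnd2, Kcnd3, Kcne4, Kcnj8, Kcnj10, Kcnk1, Kcns1 and Scn2a were higher and Kcna7, Kcnc2 and Scn9a lower. DESeq2 called 23 of the 68, beside 2182 of all 17400 tested genes. At an unadjusted p under 0.05 in edgeR there were 31, beside 3753 of all. A channel gene not called here is therefore not shown to be equal in the 2 groups. Of the 10 that were higher, 7 were also lower in muscle than in MEF, as were 924 of all 1319 genes higher in transdifferentiated cells than in muscle, or 70.1% of those and 5.31% of all tested genes, so the channel genes' share was near the background. Kcne4, Kcnj10, Kcnk1 and Scn2a were above both MEF and muscle in transdifferentiated cells, beside 2.62% of all tested genes, and Kcna7 and Scn9a above both others in muscle, beside 1.74%. Kcnd3, Kcnj10, Kcnk1 and Kcns1 reached the level of the count filter in transdifferentiated libraries alone, and Scn9a in muscle libraries alone. Those genes were tested only because of the group where they are high, so these counts and shares are not like for like. The 10 genes reached 0.505 to 10.5 CPM in transdifferentiated libraries, below the 21.7 to 127 CPM of Scn4a and Kcnn3 there. Markers of several other cell types, but not of all, were also higher in transdifferentiated cells than in muscle, where 7.58% of all tested genes were higher. Of 5 tested markers of cycling cells 5 were higher, and of 4 tested cardiac markers 2 were. Each of 10 macrophage markers was called above muscle and above MEF, with sums of 82.0 and 80.8 CPM in MEF against 4.86 and 1.95 in muscle, with 898 and 775 in transdifferentiated cells, and Tyrobp, one of them, was at 0 in both muscle libraries. Of 11 Schwann cell and neuronal markers 6 were tested and 4 were higher than in muscle, with sums of 60.7 and 45.3, 12.1 and 14.0, and 37.8 and 58.0 CPM in the same order. Of 7 fibroblast markers 5 were higher, with sums of 26106 and 16418, 12441 and 6691, and 12252 and 15376 CPM. Of 10 smooth muscle and pericyte markers 1 was higher and 1 lower, with sums of 14103 and 10294, 8858 and 7187, and 6074 and 8899 CPM. Endothelial markers, 2 of 5 tested being higher, summed to 20.6 and 19.3, 2.09 and 0.426, and 5.22 and 9.77 CPM. The part of these cell types in the channel calls was not tested.

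**Figure D3:**
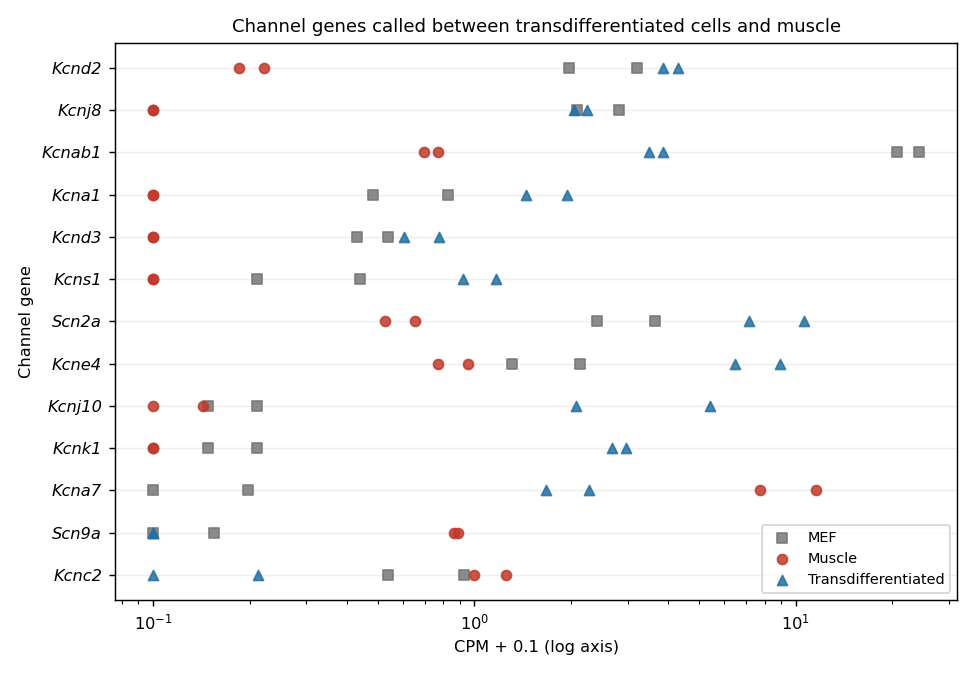
CPM + 0.1 on a log axis of the 13 channel genes called between transdifferentiated cells and muscle, 1 point per library (squares MEF, circles muscle, triangles transdifferentiated). In the upper 10 genes the muscle libraries lie left of both transdifferentiated libraries, and in the lower 3 they lie right of them. A point at 0.1 is a library with 0 reads.

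Several channel genes lie beside each other or beside a partner, with no protein-coding gene between, and the pairs did not all move together. Kcnj11 and Abcc8, the pore and cassette subunit of 1 channel, lie 3758 bases apart on chromosome 7 and were both at 0 in MEF and higher in both other groups. Kcnj8 and Abcc9, the corresponding pair on chromosome 6, lie 16247 bases apart, and in muscle Kcnj8 fell to 0 while Abcc9 rose. Kcnc1 starts 17397 bases beyond the end of Myod1, the regulator that starts the muscle programme, on the same strand. Myod1 stood at 1.43 and 0.534 CPM (MEF), 723 and 621 (muscle) and 558 and 1190 (transdifferentiated), so both genes were near 0 in MEF and high in the others. The converting factor is not stated, so whether the Myod1 reads in transdifferentiated cells came from this locus cannot be told. Scn3a and Scn2a lie 53143 bases apart on opposite strands of chromosome 2, and in muscle Scn3a rose while Scn2a fell.

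**Figure D4:**
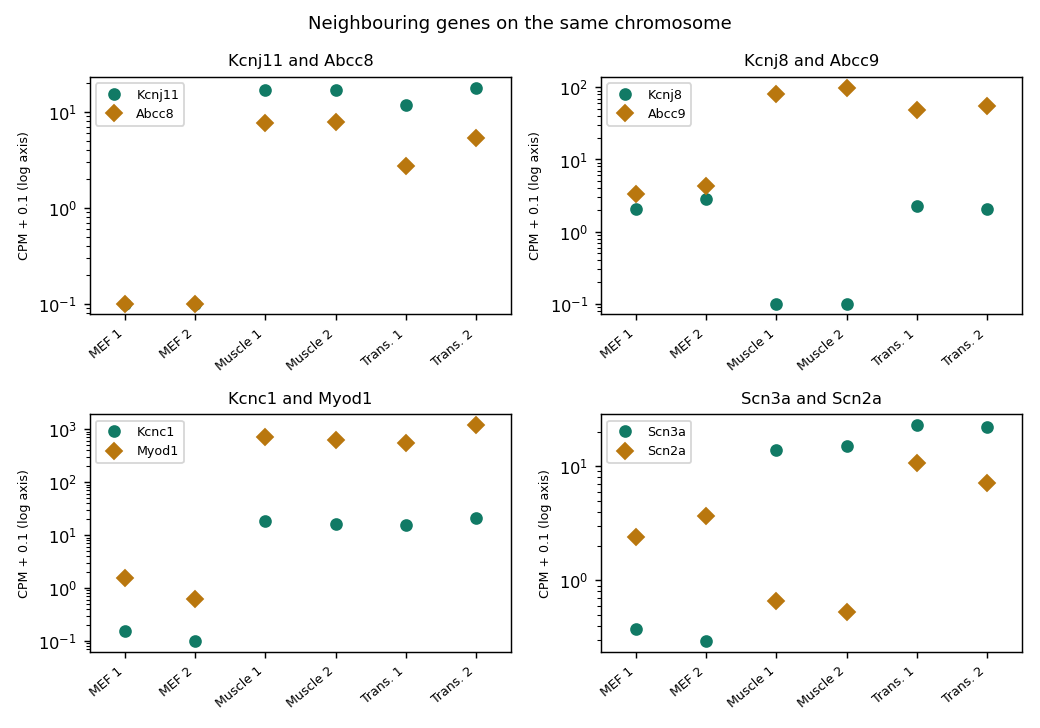
CPM + 0.1 on a log axis of 4 pairs of neighbouring genes, 1 panel per pair and 1 position per library. In the panel of Kcnj8 and Abcc9 the muscle libraries hold 0 reads of Kcnj8, drawn at 0.1, where Abcc9 stands at 80.2 and 98.2 CPM, and in that of Kcnj11 and Abcc8 the MEF points of both genes coincide at 0.1.

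Genes that work with these channels were read from further lists, with the same test. Of 20 tested partners (ancillary and anchoring proteins of channels) 11 rose and 3 fell in muscle against MEF, 10 rose and 2 fell in transdifferentiated cells, and 1 was higher and 3 lower in transdifferentiated cells than in muscle. Fgf11, one of the intracellular factors that bind sodium channels, stood at 0.220 and 0.097 CPM in MEF against 66.9 and 76.9 in muscle, with 39.9 and 49.1 in transdifferentiated cells, 8.80 ± 0.44 and 8.11 ± 0.44 above MEF (edgeR adjusted p = 2.46e-06 and 4.18e-06). Dpp6, a subunit of Kcnd channels, stood at 0.110 and 0.194 CPM in the MEF libraries, 22.7 and 30.6 in those of muscle and 3.65 and 9.09 in those of transdifferentiated cells. It rose over MEF in muscle by 7.37 ± 0.65 (edgeR adjusted p = 5.44e-05), where Kcnd1, Kcnd2 and Kcnd3 fell. Lrrc26 and Lrrc38, both subunits of the large-conductance channel, differed between muscle and transdifferentiated cells in opposite directions. Lrrc26 was at 1.32 and 1.40 CPM in muscle and 0.0562 and 0.193 in transdifferentiated cells (edgeR adjusted p = 0.0459), and Lrrc38 at 0.256 and 0.0608 against 2.08 and 3.29 (edgeR adjusted p = 0.0158). The call on Lrrc26 was lost without any 1 of these 4 libraries (adjusted p = 0.0862 to 0.254) and with DESeq2 (0.0548), and that on Lrrc38 without muscle replicate 2 (0.109) or transdifferentiated replicate 2 (0.0679).

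Of 27 tested channels of the same ions from other families, 7 were called higher and 6 lower in muscle relative to MEF, and 6 higher and 5 lower in transdifferentiated cells. Of all tested genes, 17.3% and 18.3% were called so in muscle, and 15.9% and 11.3% in transdifferentiated cells. Ano5, an anoctamin whose loss causes muscular dystrophy, stood at 1.43 and 1.55 CPM (MEF), 379 and 463 (muscle) and 96.3 and 91.4 (transdifferentiated), 2.17 ± 0.24 lower in the last than in muscle log2 units (edgeR adjusted p = 0.000847). The pacemaker channel Hcn4 had no read in muscle, 0.605 and 0.437 CPM in MEF, and 0.618 and 2.03 in transdifferentiated cells, the muscle-low pattern of Kcnj8 and Kcna1 (edgeR adjusted p = 0.0182 against MEF and 0.0162 between transdifferentiated cells and muscle). Both calls on Hcn4 were lost without muscle replicate 1 (adjusted p = 0.0824 and 0.0885) or muscle replicate 2 (0.0644 and 0.0745), the second also without transdifferentiated replicate 2 (0.0620). Of the triad genes, which turn the action potential into calcium release, 16 of 19 rose and 1 fell in muscle, and 16 rose in transdifferentiated cells. Cacna1s, the voltage sensor, stood at 0.385 and 0.728 CPM in MEF against 717 and 697 in muscle, with 208 and 437 in transdifferentiated cells. End-plate genes, which carry the nerve signal to the membrane, rose in 12 of 13 cases in both, and 3 were lower in transdifferentiated cells than in muscle. Of 12 sodium pump genes 6 rose and 2 fell in muscle and 7 rose in transdifferentiated cells. Among them Atp1b4 stood at 0 and 0.0485 CPM in the MEF libraries, 4.13 and 1.40 in those of muscle and 199 and 179 in those of transdifferentiated cells, 6.06 ± 0.52 above muscle log2 units (edgeR adjusted p = 0.000280).

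The authors' deposited table of their own comparison lists 37 of the 115 channel genes, 24 higher in muscle and 13 higher in MEF. Of these, 34 were tested here and all 34 were called in muscle against MEF with the same sign. That table comes from the same libraries, and its direction was read from the genes tested here. The match is therefore no independent check. In the authors' deposited table the log2 fold changes, signed as MEF over muscle, were -9.94 for Scn4a and -2.41 for Clcn1.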

How the data were processed

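RNA was measured in 6 libraries, 2 each of MEF, muscle and transdifferentiated cells, grouped by their titles. Per the labels' protocols, the library kit was Lexogen SENSE mRNA and reads were single-end, of 75 bp. The submitters' processing notes name Trim Galore 0.6.0, HISAT2 2.1.0, featureCounts 1.6.2, DESeq2 1.26.0 and the build mm10. The annotation and the strand setting are not given there, and 22 of the 68 tested channel genes overlap a gene on the opposite strand. The authors deposited raw counts per gene symbol, and a table of their own comparison with log2 fold changes and p-values per the file headers, whose sign was read from all 2645 listed genes tested here.

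Counts were scaled by TMM and filtered by filterByExpr, and all 6 libraries were fitted in 1 model with group as its term by the quasi-likelihood test of edgeR 4.0.16 in R 4.3.3, leaving 3 residual degrees of freedom. The biological coefficient of variation was 27.3%. P-values were Benjamini-Hochberg adjusted over 17400 genes. The code was tested on simulated data for transdifferentiated cells against MEF (16781 genes). There 8.75% of changes of 1 on the log2 scale, 81.2% of changes of 2 and 100% of changes of 4 were recovered. The simulation changed 80, 80 and 40 genes of these sizes and gave every gene the same spread. In the data 4742 genes were called in this comparison, so the simulated rates need not hold for it. An exact permutation test of single genes cannot go below p = 0.333. Exon lengths and coordinates are from GENCODE M21. Counting intervals are Poisson at 95 percent and cover counting error only.

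The channel genes and all lists were chosen with earlier results of these data known. Named genes are a panel of muscle-related channels, the 10 called members with the largest change in each direction and comparison at 1 CPM or more, those called between transdifferentiated cells and muscle, those set apart from both other groups, and up to 4 genes a list with the largest change. Abcc9, Myod1, Lrrc38, Kcna6, Kcng1, Kcng2, Kcnh2 and Kcnip2 were added after their values were seen. Some of the 115 genes count in the totals and are not reported here by name. Alternatives were RLE factors, library totals, no and a stricter count filter, DESeq2 1.42.0, a replicate block, fits of the 2 groups compared and leaving out each library.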

Additional observations from a re-analysis of the deposited data

How the results depend on the processing

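The 13 alternatives kept most counts within 1.5 times. In muscle against MEF the number of channel genes lower, 16, ranged from 9 (without muscle replicate 2) to 18 when libraries were left out in turn. Between transdifferentiated cells and muscle the number higher, 10, was 22 with no count filter and 16 with only these groups fitted, and 9 (without muscle replicate 2) to 16 (without MEF replicate 1) with libraries left out. The number lower, 3, was 9 with no filter, 1 with a stricter filter, 8 with DESeq2 and 8 with only these groups fitted, and 0 by edgeR (without muscle replicate 2) to 9 (without MEF replicate 1) with libraries left out, so that small count rests on single libraries. Of the calls on named channel genes, 27 of 38 in muscle and 25 of 34 in transdifferentiated cells against MEF, and 8 of 13 between those groups, held in every alternative that could fit them. Values that changed sign were all uncalled, and are given in log2 units with ranges over libraries left out in turn. In muscle against MEF, Clcn5 was -0.0236 by library totals and ran from -0.10 (without MEF replicate 1) to 0.257. In transdifferentiated cells against MEF, Kcnj8 ran from -0.423 to 0.0316 (without MEF replicate 2) and Kcnn4 from -0.433 to 0.39 (without MEF replicate 1). Between transdifferentiated cells and muscle, Kcnc1 ran from -0.20 (without transdifferentiated replicate 2) to 0.254, Kcnj11 from -0.524 to 0.0699 (without transdifferentiated replicate 1), Kcnj2 from -0.10 (without muscle replicate 2) to 0.302, and Kcnn3 from -0.23 (without transdifferentiated replicate 2) to 0.194. Kcnn3 was -0.0245 with RLE factors, -0.0017 with no filter, -0.0245 with DESeq2 and -0.0191 with the replicate block. The cause was not tested.

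Replicate numbers did not pair the libraries: deviations of same-numbered libraries correlated at 0.314 between MEF and muscle, -0.529 between MEF and transdifferentiated cells and -0.291 between muscle and transdifferentiated cells. With the replicate number as a block, the channel genes called were 26 up and 13 down for muscle over MEF, 30 and 5 for transdifferentiated cells over MEF, and 10 and 2 for transdifferentiated cells over muscle. Calls on named channel genes not passed with the block were Clcn7, Kcnn4, Kcns1 and Kcnt2 in muscle over MEF, Kcnc2, Kcnj3, Kcnk12, Kcnma1 and Scn2a in transdifferentiated cells over MEF, and Kcnc2, Kcnd3 and Scn9a between transdifferentiated cells and muscle, with adjusted p from 0.0512 (Kcnma1) to 0.0875 (Kcnk12). Depth limits genes under about 0.182 CPM, where a count of 0 allows 3 reads, and folds from such groups are bounds.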
